A study of Mus musculus with 8 samples.

Results

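The genes described here are 6 of the 56748 gene identifiers in the count table: Kcnu1, Lrrc52, Slc9c1, Hvcn1, Atp1a4 and Atp2b4. They were chosen by name, as genes that move potassium, protons, sodium or calcium across the sperm membrane outside the CatSper channel, and all 6 were found by Ensembl identifier. Their RNA was measured by sequencing testes of adult mice, with 4 libraries of the labelled genotype Ak9-/- (called labelled knockouts here) and 4 of the labelled genotype WT (wild types). The sources used here do not give the strain, the exact age, the kind of Ak9 mutation or whether each library came from its own animal. A p-value therefore weighs a difference against the variation from library to library, part or all of which may be technical. The study concerns the part of AK9, an adenylate kinase that interconverts adenine nucleotides, in sperm motility.

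A sperm that enters the female tract changes its membrane voltage, its internal pH and its calcium, and its tail beat changes with them. KCNU1, also called SLO3, is the pore of the potassium channel of mouse sperm. It opens as the cell becomes alkaline, and LRRC52 is its accessory subunit. SLC9C1 is the sperm sodium-proton exchanger, a transporter with a voltage sensor, which raises internal pH and is linked to the soluble adenylyl cyclase encoded by Adcy10. HVCN1 is a voltage-gated proton channel, well known in human sperm and in white blood cells. ATP1A4 is the sperm form of the catalytic subunit of the sodium pump, and ATP2B4 (PMCA4) is the calcium pump of the sperm tail membrane. Both pumps split ATP.

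Total counts ran from 18062780 to 24415587 per library, and 21805 genes passed the filter on low counts, all 6 genes among them. Markers of the labelled tissue were present: all 10 of 10 round spermatid, 10 of 10 elongating spermatid, 10 of 10 Sertoli and 10 of 10 Leydig genes passed the filter. The targeted gene did not follow its label in every library. Ak9 stood at 69.3, 116, 101 and 40.6 CPM (counts scaled to a common total, with TMM factors) in labelled knockouts 1 to 4, and wild types had 107 to 122 CPM. The log2 fold change was -0.47 (SE 0.25, edgeR adjusted p = 1.00), and leaving out 1 library moved it between -0.24 (without labelled knockout 4) and -0.69 (without labelled knockout 2). Every direction below therefore compares labels. Labelled knockout 3 stood apart: the mean log2 level of round spermatid genes was -0.77 relative to the wild-type mean there and 0.37, 0.23 and 0.27 in labelled knockouts 1, 2 and 4. Of 11 listed genes of the epididymis, 3 were high in labelled knockouts 3 and 4: Crisp1 had 3755 and 419 counts there and 0 to 10 in the other libraries, Adam7 had 531 and 72 beside 0 to 4, and Spink8 had 1026 and 158 beside 21 to 42. Of the other 8, Lcn5 had 9 counts in labelled knockout 3 and 0 or 1 in every other library. Lcn9 had 3 and 2 counts in labelled knockouts 3 and 4, beside 0 to 2 elsewhere. Rnase10 was lowest in labelled knockout 3, at 63 counts, and Lcn6 was at 0 in all 8 libraries. Gpx5, Cst11 and Defb20 were at 0 in labelled knockout 3, but no library exceeded 3, 7 and 4 counts of them, so these zeros say little. Fold changes, spreads, ratio differences and counts of related genes are given with and without labelled knockout 3.

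RefSeq promoter sequences (GRCm38.p6) were found for 4 of the 6 genes. All 4 are shown. The levels of Atp1a4, Lrrc52 and Slc9c1 were all lowest in labelled knockout 3 and that of Atp2b4 was highest there. The first 3 did not share 1 pattern throughout. In labelled knockout 1 the log2 level relative to the wild-type mean was -0.32 for Slc9c1, 0.22 for Atp1a4 and 0.23 for Lrrc52. Any part of the upstream sequence in these levels was not tested. Each line gives the 250 bases before the annotated start, 5′ to 3′ on the gene's strand. Capitals mark matches to any of 5 motifs on either strand: TGACG (the half-site of a cAMP response element), CAGTTG (the core of a MYB site, which also has the form of an E-box), the promoter element CCAAT, the Sp1-type element GGGCGG and the start-site element TATAAA. The windows are chr1:172258425-172258674 (minus strand) for Atp1a4, chr1:167466781-167467030 (minus strand) for Lrrc52, chr16:45535016-45535265 (plus strand) for Slc9c1 and chr1:133753748-133753997 (minus strand) for Atp2b4.
Atp1a4: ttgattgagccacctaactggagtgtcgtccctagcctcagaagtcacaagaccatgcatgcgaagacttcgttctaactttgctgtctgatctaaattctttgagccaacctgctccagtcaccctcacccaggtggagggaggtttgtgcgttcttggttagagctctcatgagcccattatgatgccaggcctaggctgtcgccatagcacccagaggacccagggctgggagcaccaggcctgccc
Lrrc52: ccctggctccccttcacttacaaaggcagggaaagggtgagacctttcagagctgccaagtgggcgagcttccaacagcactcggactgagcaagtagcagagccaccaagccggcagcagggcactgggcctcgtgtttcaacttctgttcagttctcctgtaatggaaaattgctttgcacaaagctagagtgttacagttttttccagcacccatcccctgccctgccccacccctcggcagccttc
Slc9c1: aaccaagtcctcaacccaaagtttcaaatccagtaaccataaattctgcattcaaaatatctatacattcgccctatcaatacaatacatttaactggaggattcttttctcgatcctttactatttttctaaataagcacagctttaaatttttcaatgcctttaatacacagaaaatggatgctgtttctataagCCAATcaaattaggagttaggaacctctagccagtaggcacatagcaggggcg
Atp2b4: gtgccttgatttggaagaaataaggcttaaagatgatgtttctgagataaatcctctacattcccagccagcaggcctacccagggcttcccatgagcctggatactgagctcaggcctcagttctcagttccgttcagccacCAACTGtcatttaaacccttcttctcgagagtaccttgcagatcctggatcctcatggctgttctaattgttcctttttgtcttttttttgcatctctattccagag
The letters of none of the 5 motifs were found upstream of Atp1a4 and Lrrc52. Slc9c1 had CCAAT at positions -53 to -49, where -1 is the last base before the start, and Atp2b4 had CAGTTG on the opposite strand at -107 to -102. The window of Adcy10, not printed, had CAGTTG on the opposite strand at -181 to -176 and CCAAT at -77 to -73. Adcy10 was lowest in labelled knockout 3, at 236 CPM, so CAGTTG was not confined to the gene that was highest there. Of 32851 RefSeq promoter windows of the same length, 17.8% held TGACG, 11.1% CAGTTG, 33.8% CCAAT, 32.7% GGGCGG and 12.4% TATAAA. The Slc9c1 window was poor in G and C (35.6%, against a median of 52.4% over all windows), while Atp1a4 and Lrrc52 had 54.8% and 56.0%. The number of CG pairs was 5 for Atp1a4 and Lrrc52, 3 for Slc9c1 and 2 for Atp2b4, beside a median of 6. The Atp2b4 window lies at 1 annotated start of a gene that has several. The stretch checked after the Slc9c1 start was not found in a GENCODE M21 transcript, unlike those of Atp1a4, Lrrc52 and Atp2b4. Whether the Slc9c1 start is the one in use was not tested.

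Among these genes the sodium pump isoform was by far the most abundant transcript per length. Per kilobase of exon, Atp1a4 stood at 209 ± 16.0 CPM per kb in wild types (SD, n = 4), Slc9c1 at 36.2 ± 2.80, Kcnu1 at 22.9 ± 1.68, Lrrc52 at 21.0 ± 0.509, Atp2b4 at 11.0 ± 0.612 and Hvcn1 at 0.231 ± 0.0923. Lengths are the union of GENCODE M21 exons. Kcnu1 and Lrrc52, the pore and its accessory subunit, stood close together, with a ratio of wild-type means of 1.09. Their wild-type ranges overlapped (20.4 to 24.0 and 20.3 to 21.6 CPM per kb). Compared within each library, Kcnu1 was the higher in 7 of 8, all but labelled knockout 3. The other neighbours in this order had wild-type ranges that did not overlap and kept their order in 8 of 8 libraries. The place of Atp2b4 depends on the length taken, since its coding transcripts run from 3324 to 11725 bases: with the shortest its wild-type mean would be 40.7 CPM per kb. Kcnu1 would be at 59.3 CPM per kb with its shortest coding transcript of 1446 bases.

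**Figure D1:**
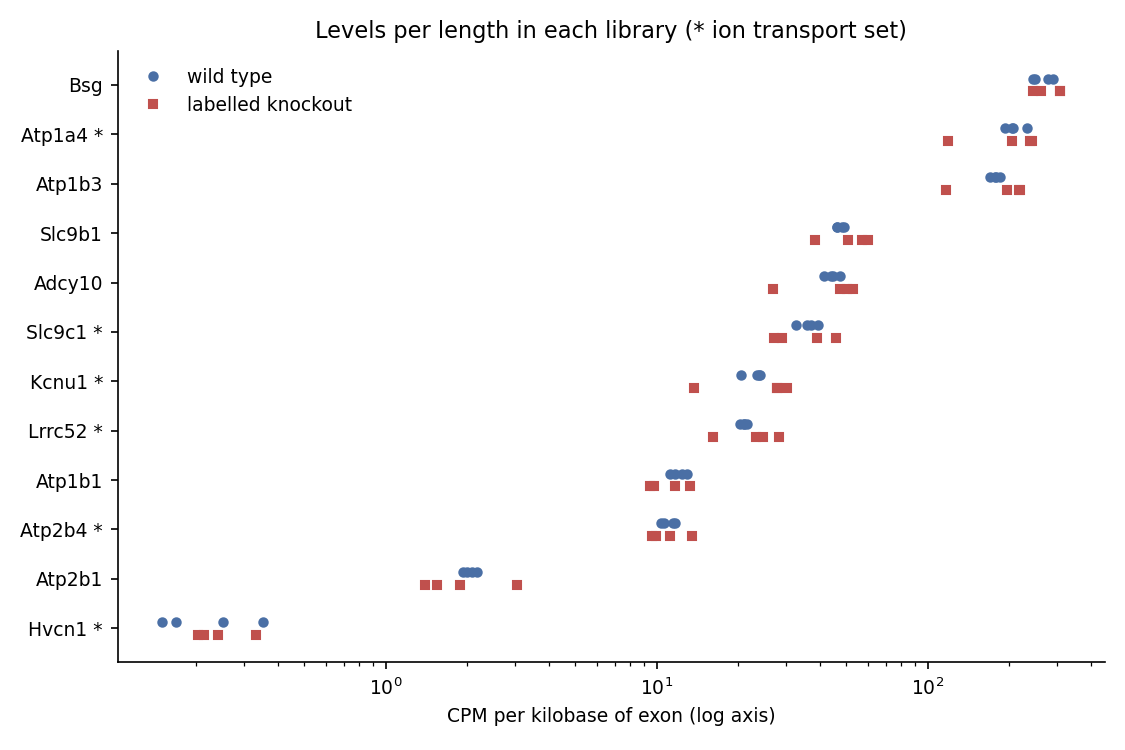
Level of the 6 genes (marked *) and of partner genes in CPM per kilobase of exon, on a log axis, with 1 point per library (circles wild type, squares labelled knockout). Atp1a4 lies beside Atp1b3 and Bsg above 100 CPM per kb in every library, and Hvcn1 lies lowest.

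No gene of the set passed as different between the labelled genotypes. Of the 6 genes, 0 passed edgeR's quasi-likelihood test at an adjusted p under 0.05, 0 had an unadjusted p under 0.05, and 0 were called by DESeq2 or limma-voom. Over all 21805 genes tested, 0.0183% passed the adjusted threshold in edgeR and limma-voom alike, 0.211% in DESeq2, and 3.04% had an unadjusted p under 0.05 in edgeR. The median log2 fold change was 0.04 over the 6 genes and 0.01 over all genes tested. The groups did not overlap for 0 of the 6 genes, where 2.30% of all tested genes had groups that did not overlap. Labelled knockout 3 was the lowest of the 8 libraries for 4 of the 6 genes and the highest for 1, where it was lowest for 29.1% and highest for 27.8% of all tested genes.

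Kcnu1 (ENSMUSG00000031576, chromosome 8), the channel pore, stood at 89.7, 76.4, 89.1 and 87.7 CPM in wild types 1 to 4 and at 104, 104, 51.4 and 113 CPM in labelled knockouts 1 to 4. Labelled knockouts 1, 2 and 4 lay above every wild type and labelled knockout 3 lay below every wild type, at 59.9% of the wild-type mean. The group means were 92.9 ± 28.0 and 85.7 ± 6.29 CPM (SD, n = 4 per group), with a log2 fold change of 0.12 (SE 0.20, edgeR adjusted p = 1.00). The 95% interval of the fold ran from 0.794 to 1.48. Without labelled knockout 3 the log2 fold change was 0.30 (SE 0.08), and the edgeR adjusted p = 0.102. DESeq2 on the same 7 libraries, an analysis added after the data were seen, gave 0.31 (SE 0.09) and a DESeq2 adjusted p = 0.0134, in a fit that called 5.02% of 22131 genes, where edgeR called 0.158%.

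Lrrc52 (ENSMUSG00000040485, chromosome 1), the accessory subunit, was the steadiest of the set among wild types, at 23.9, 23.2, 24.6 and 24.0 CPM. Labelled knockouts 1 to 4 had 28.3, 26.6, 18.4 and 32.4 CPM. As for Kcnu1, labelled knockouts 1, 2 and 4 were above every wild type and labelled knockout 3 below every one. That arrangement of labelled knockouts 1, 2 and 4 above all wild types held for 2 of the 6 genes and for 9.42% of all tested genes. The log2 fold change was 0.14 (SE 0.15, edgeR adjusted p = 1.00), with an interval of 0.871 to 1.39-fold. Without labelled knockout 3 it was 0.26 (SE 0.09, edgeR adjusted p = 0.167).

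**Figure D2:**
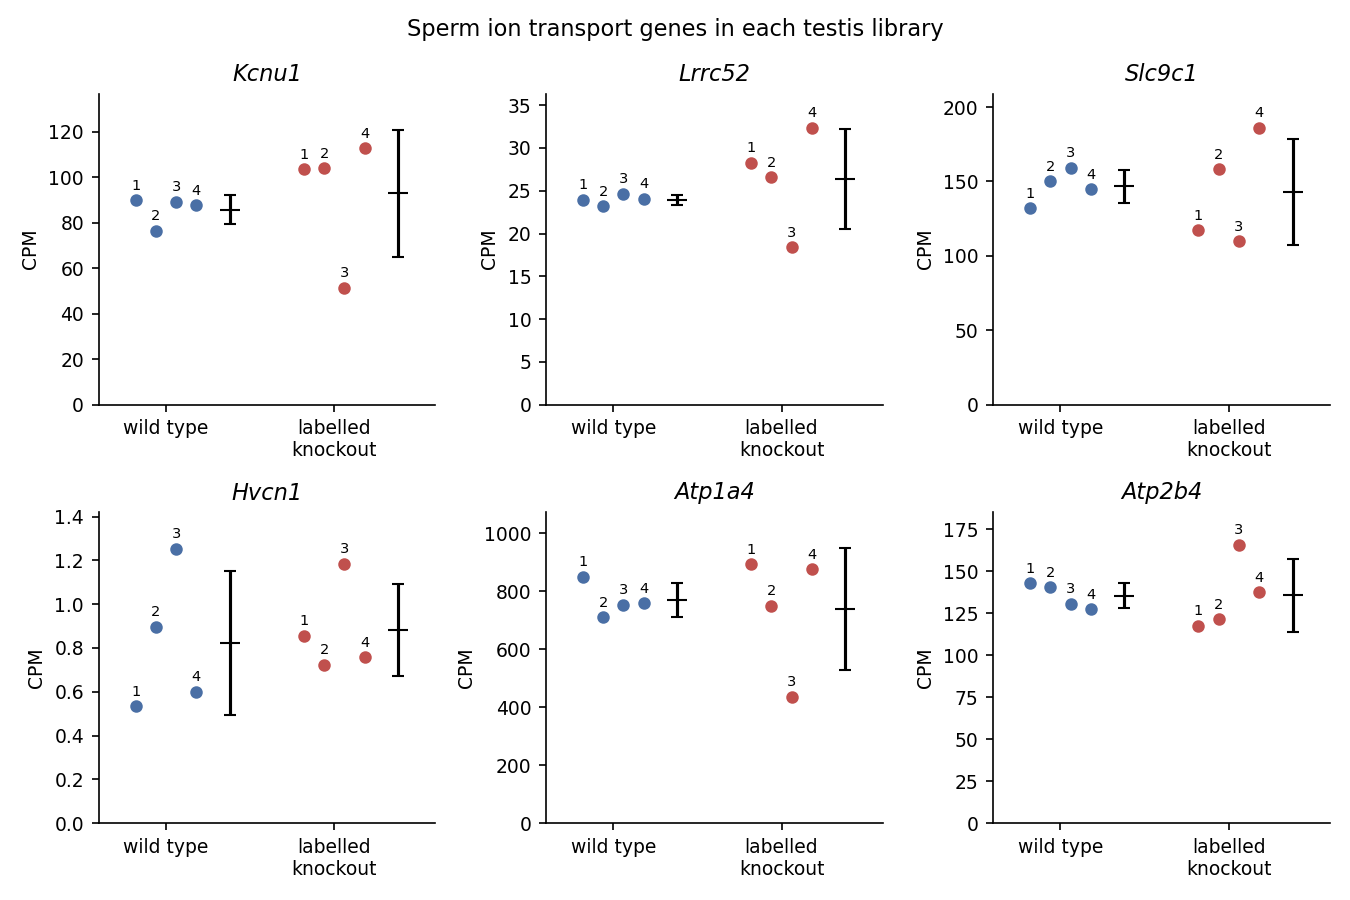
CPM of each gene in each library, points numbered by library, with the group mean and SD as a bar at the right of each group. Labelled knockout 3 is the lowest point for Kcnu1, Lrrc52, Slc9c1 and Atp1a4 and the highest for Atp2b4, while labelled knockouts 1, 2 and 4 lie above every wild type for Kcnu1 and Lrrc52.

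Slc9c1 (ENSMUSG00000033210, chromosome 16), the sodium-proton exchanger, followed another order among the labelled knockouts. Wild types 1 to 4 had 132, 150.2, 159 and 145 CPM, and labelled knockouts 1 to 4 had 117, 158, 109.9 and 186 CPM. Labelled knockouts 1 and 3 were below every wild type, labelled knockout 4 was above every wild type, and labelled knockout 2 was inside the range of the wild types. The log2 fold change was -0.04 (SE 0.16, edgeR adjusted p = 1.00), with an interval of 0.761 to 1.25-fold, and 0.06 (SE 0.13) without labelled knockout 3. Labelled knockout 1 is where Slc9c1 parted from the potassium channel genes: relative to the wild-type mean its log2 level was -0.32 there, and those of Kcnu1 and Lrrc52 were 0.27 and 0.23.

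Hvcn1 (ENSMUSG00000064267, chromosome 5), the proton channel, was scarce. It had 10, 20, 31 and 12 counts in wild types 1 to 4 and 19, 15, 24 and 13 counts in labelled knockouts 1 to 4, or 0.534 to 1.25 and 0.724 to 1.18 CPM, and the groups overlapped throughout. The log2 fold change was 0.08 (SE 0.33, edgeR adjusted p = 1.00), and the interval of 0.635 to 1.76-fold shows how little this depth resolves. Without labelled knockout 3 the log2 fold change was -0.11 (SE 0.35). In GENCODE M21, 1574 bases of Hvcn1 exons overlap exons of Tctn1 on the other strand, a gene with 41.1 CPM in wild types, so the few reads cannot be assigned to Hvcn1 with certainty where strand was not used. Markers of macrophages, which also carry this channel, were all detected (8 of 8 tested, summed level 97.1 to 136 CPM in labelled knockouts and 123 to 140.3 in wild types). Of 8 lymphocyte and neutrophil markers 2 were tested, with a summed level of 1.30 to 2.97 CPM in labelled knockouts and 2.25 to 2.83 in wild types, and no count of Cd79a, Cd79b, Cd8a, S100a8 or S100a9 exceeded 5 in any library. Ms4a1, the other untested marker, had 5 to 19 counts, in the range of Hvcn1 itself. The part of these cells in the Hvcn1 level was not tested.

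Atp1a4 (ENSMUSG00000007107, chromosome 1), the sperm sodium pump subunit, stood at 849, 709.6, 753 and 759 CPM in wild types and at 892, 749.9, 436 and 875 CPM in labelled knockouts 1 to 4. Labelled knockout 3 lay far below every other library, at 56.8% of the wild-type mean from 8833 counts, while labelled knockouts 1 and 4 were slightly above every wild type and labelled knockout 2 within their range. The log2 fold change was -0.06 (SE 0.20, edgeR adjusted p = 1.00, interval 0.709 to 1.30-fold). Without labelled knockout 3 it was 0.12 (SE 0.09, edgeR adjusted p = 0.490).

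Atp2b4 (ENSMUSG00000026463, chromosome 1), the calcium pump, ran the other way. It had 143, 141, 131 and 127 CPM in wild types and 118, 121, 166 and 137 CPM in labelled knockouts 1 to 4. Labelled knockout 3 was the highest of all 8 libraries, at 123% of the wild-type mean, labelled knockouts 1 and 2 were below every wild type and labelled knockout 4 was within their range. The 2 means were nearly the same, with a log2 fold change of 0.0026 (SE 0.12, edgeR adjusted p = 1.00, interval 0.833 to 1.20-fold), and without labelled knockout 3 the value was -0.12 (SE 0.08, edgeR adjusted p = 0.413).

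**Figure D3:**
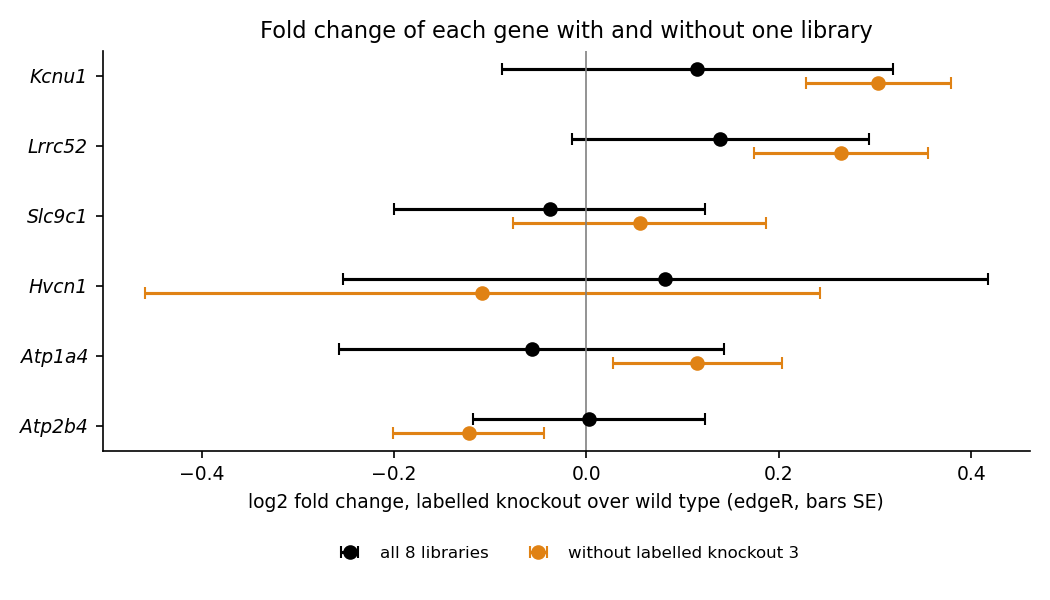
Log2 fold change of each gene, labelled knockout over wild type, from edgeR with all 8 libraries (black) and without labelled knockout 3 (orange), with the SE as bars. Leaving out that library moved Kcnu1 from 0.12 to 0.30 and Atp2b4 from 0.0026 to -0.12, and no value passed the adjusted threshold in either fit.

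The spread among the labelled knockouts was the larger for 5 of the 6 genes, as it was for 84.9% of all tested genes. The SD of log2 CPM in labelled knockouts against wild types was 0.53 against 0.11 for Kcnu1, 0.48 against 0.11 for Atp1a4, 0.36 against 0.11 for Slc9c1, 0.34 against 0.03 for Lrrc52 and 0.22 against 0.08 for Atp2b4. Hvcn1 was the exception, with 0.21 against 0.35. The median over all tested genes was 0.30 in labelled knockouts and 0.13 in wild types. Without labelled knockout 3, a comparison added after the data were seen, the SD in labelled knockouts was 0.07 for Kcnu1, below that of wild types, 0.14 for Atp1a4, 0.34 for Slc9c1, 0.14 for Lrrc52, 0.12 for Atp2b4 and 0.08 for Hvcn1. It was then the larger for 4 of the 6 genes and for 68.6% of all tested genes, with a median of 0.20.

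Markers of spermatids varied alongside several of these genes across the labelled knockouts. Relative to the wild-type mean, the elongating spermatid genes (10 of 10 tested) had mean log2 levels of 0.38, 0.07, -0.82 and 0.47 in labelled knockouts 1 to 4, beside 0.22, -0.03, -0.81 and 0.19 for Atp1a4 and 0.27, 0.28, -0.73 and 0.39 for Kcnu1. Their summed level was 9112 to 22079 CPM in labelled knockouts and 14419.9 to 17978 in wild types, and that of the 10 round spermatid genes was 739 to 1553 and 1109.8 to 1280.2 CPM. Lrrc52 had log2 levels of 0.23, 0.15, -0.37 and 0.43 relative to the wild-type mean in labelled knockouts 1 to 4, and Slc9c1 had -0.32, 0.11, -0.41 and 0.35. Slc9c1 was thus below the wild-type mean in labelled knockout 1, where the elongating spermatid genes were above it. Atp2b4 had -0.20, -0.15, 0.29 and 0.02 in the same libraries, beside -0.17, 0.04, 0.51 and -0.46 for the Sertoli genes and 0.10, 0.28, 0.27 and -0.01 for smooth muscle genes. The spermatogonia list, at -0.48, -0.07, 0.21 and -0.44, was also highest in labelled knockout 3, and the Leydig list was below the wild-type mean in all 4, at -0.46, -0.55, -0.16 and -0.98. All 10 of 10 Leydig genes had a log2 fold change below 0, beside 10272 of all 21805 tested genes, with a median of -0.34 and 0 called. Their summed level was 984 to 2121 CPM in labelled knockouts and 1931 to 2247 in wild types. The mean of the 10 spermatocyte genes stayed between -0.01 and 0.04, while single genes went both ways: Ldhc was at 2346 CPM in labelled knockout 3, beside a wild-type mean of 3332 CPM, and Dmc1 was at 32.2 CPM there, beside 26.6 CPM. The part of cell composition in these levels was not tested, and in bulk tissue fewer cells of a type and less RNA per cell cannot be told apart.

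**Figure D4:**
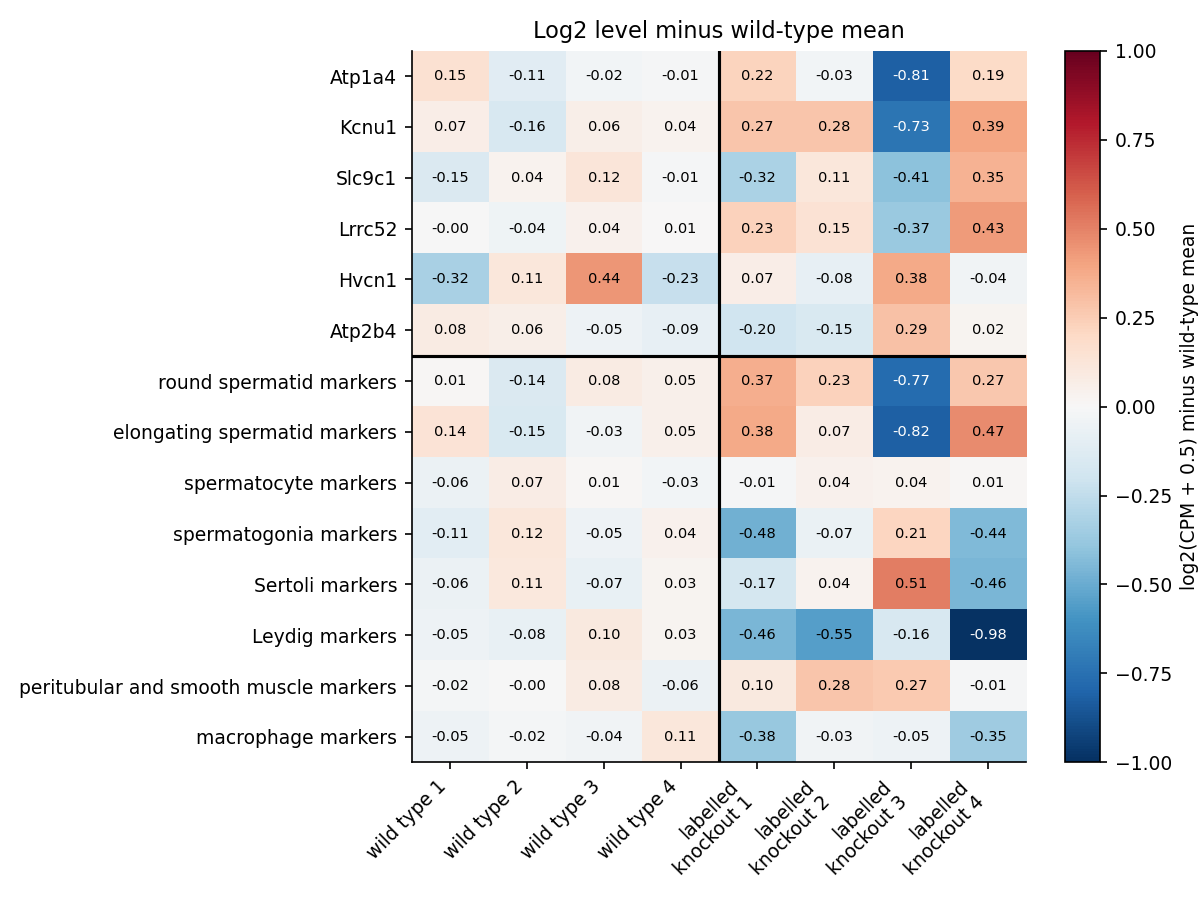
Log2(CPM + 0.5) minus the wild-type mean for each of the 6 genes (top) and for the means of marker lists (bottom) in the 8 libraries, blue below and red above the wild-type mean. The endothelial, lymphocyte and neutrophil, blood and epididymis lists are not drawn. In labelled knockout 3, Atp1a4 (-0.81) and Kcnu1 (-0.73) share their sign and size with the spermatid lists (-0.77 and -0.82). Atp2b4 (0.29) shares its sign there with the Sertoli (0.51), smooth muscle (0.27), spermatogonia (0.21) and spermatocyte (0.04) lists. In labelled knockout 4, Atp2b4 (0.02) and the Sertoli list (-0.46) differ in sign.

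Ratios within a library, which no library scaling can change, compared each of 3 genes with a partner. The log2 ratio of Kcnu1 to Lrrc52 counts took the values 1.87, 1.97, 1.48 and 1.80 across labelled knockouts 1 to 4, and wild types 1 to 4 had 1.90, 1.72, 1.85 and 1.87. Labelled knockout 3 was the lowest, so the pore was lower there relative to its accessory subunit. The ratio of Slc9c1 to Adcy10 was -1.91, -1.39, -1.10 and -1.31 in labelled knockouts and -1.65, -1.27, -1.29 and -1.41 in wild types, lowest in labelled knockout 1 and highest in labelled knockout 3. The ratio of Atp2b4 to Atp2b1, the widely expressed calcium pump, was 2.32, 2.08, 1.83 and 2.69 in labelled knockouts and 2.23, 2.09, 2.15 and 2.01 in wild types. As for Kcnu1 to Lrrc52, labelled knockout 3 was lowest, although Atp2b4 itself was highest there, because Atp2b1 was further above its wild-type level, at 46.5 CPM against 29.4 to 33.0 CPM.

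None of the 3 ratios passed as different between groups. The differences, labelled knockout minus wild type, were -0.06 for Kcnu1 to Lrrc52 (two-sided exact permutation p = 0.771), -0.02 for Slc9c1 to Adcy10 (exact p = 0.886) and 0.11 for Atp2b4 to Atp2b1 (exact p = 0.657). Adjusted over the 3 ratios, each exact permutation p was 0.886, and the smallest unadjusted p that 4 against 4 libraries allow is 0.0286. Even at that floor 1 ratio alone could not have passed 0.05 after adjustment over the 3, so the lack of a pass says little. Without labelled knockout 3 the differences were 0.04 for Kcnu1 to Lrrc52, which changed sign, -0.13 for Slc9c1 to Adcy10 and 0.24 for Atp2b4 to Atp2b1, with exact permutation p = 0.514, 0.457 and 0.229. With 3 against 4 libraries this test cannot give a p under 0.05 at all. The SD of the Atp2b4 ratio was 0.36 in labelled knockouts and 0.10 in wild types.

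**Figure D5:**
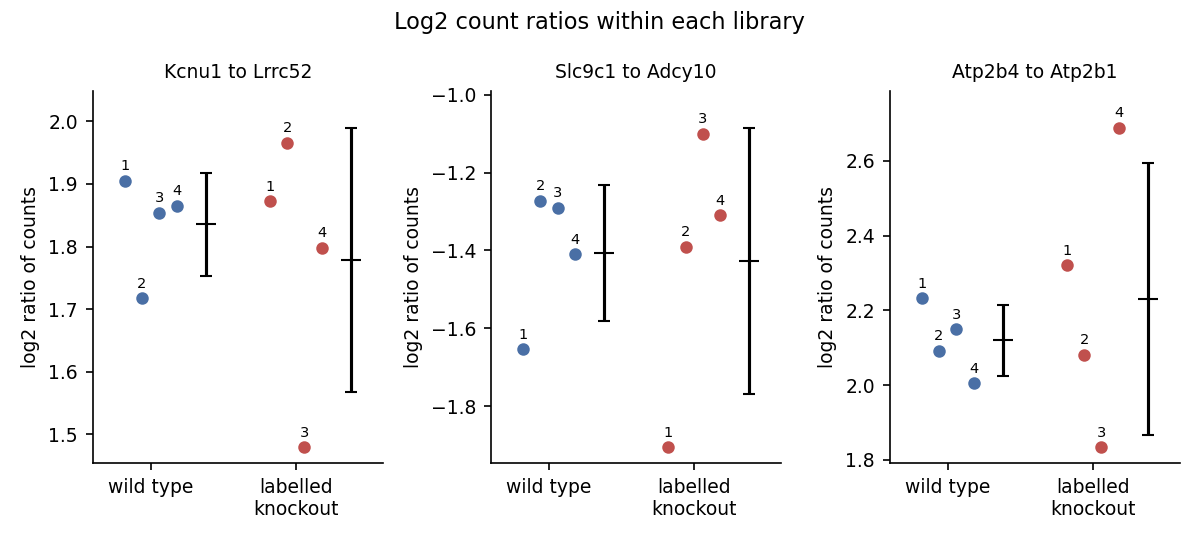
Log2 ratio of the counts of 2 genes within each library, points numbered by library, with the group mean and SD at the right of each group. For Kcnu1 to Lrrc52, labelled knockout 3 lies at 1.48 and every other library between 1.72 and 1.97.

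The relatives and partners of these genes showed no difference that passed with all 8 libraries. Of 43 genes in 5 lists, 35 were tested: 10 had a log2 fold change above 0 and 25 below, with a median of -0.06. Over all 21805 genes tested, 11533 were above 0 and 10272 below. Of the 35, 0 passed edgeR's adjusted threshold and 0 were called by DESeq2 or limma-voom. An unadjusted p under 0.05 was reached by 1 of the 35, beside the 3.04% of all tested genes. That gene was Tmem266, a voltage-sensor protein related to HVCN1, at 1.13, 1.40, 2.17 and 1.92 CPM in labelled knockouts and 0.641, 1.26, 0.809 and 1.05 CPM in wild types, with an edgeR adjusted p of 1.00 (log2 fold change 0.80, SE 0.30). Tpte, a phosphatase-like protein with a voltage sensor, was the more abundant of that list, at 8.96 ± 1.08 CPM in wild types (SD, n = 4).

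The potassium channel relatives were scarce. Of 10 listed, 7 were tested, and the one with the highest level was Kcnmb4, an accessory subunit of the related Slo1 channel, at 12.6 ± 1.98 CPM in wild types and 12.6 ± 2.05 in labelled knockouts. Kcnmb3, of the same family, had the smallest p, at 2.78 ± 1.21 CPM in labelled knockouts and 3.66 ± 0.332 in wild types. Per length the Slo1 pore gene Kcnma1 stood at 0.377 ± 0.0283 CPM per kb in wild types, beside 22.9 for Kcnu1. Kcnma1 was chosen after its values were seen.

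Among the exchangers and the cyclase, 11 of 12 genes were tested. Adcy10 had the highest level, 388 ± 21.8 CPM in wild types and 388 ± 103 in labelled knockouts, and 236 CPM in labelled knockout 3. Slc9b1, a sodium-proton exchanger found in testis, had the smallest p of the list, at 190 ± 35.7 CPM in labelled knockouts beside 175 ± 5.15 for wild types (log2 fold change 0.12, SE 0.14). Per length Slc9b1 exceeded Slc9c1 in 8 of 8 libraries, at 47.4 ± 1.40 against 36.2 CPM per kb in wild types, and Adcy10 exceeded it in 7 of 8.

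The sodium pump list also held the related proton-potassium pump genes Atp4a and Atp12a, with log2 fold changes of -0.36 and -0.20. Of its 14 genes 10 were tested, and 9 of these were below 0, beside 10272 of all 21805 tested genes. Atp1b3, a beta subunit, was the exception and the most abundant, at 447 ± 115 CPM in labelled knockouts and 424 ± 14.2 in wild types, with 278 CPM in labelled knockout 3. Per length it stood at 178 ± 5.95 CPM per kb in wild types, close below Atp1a4 at 209 and well above Atp1b1 at 12.0, which was chosen after its values were seen. Fxyd6, a small pump regulator, had the smallest p, at 45.4 ± 10.8 CPM in labelled knockouts beside 56.5 ± 5.16 for wild types (log2 fold change -0.31, SE 0.15).

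Counts among the relatives changed when labelled knockout 3 was left out, in a comparison added after the data were seen. Of 36 then tested, 11 were above 0 and 25 below, with a median of -0.10. In edgeR 0 were called and 11 had an unadjusted p under 0.05, beside 19% of all 22131 genes. DESeq2 called 3, all of the sodium pump list, in the fit that called 5.02% of all genes. Atp1b3 had a log2 fold change of 0.24 (SE 0.07, DESeq2 adjusted p = 0.0213, edgeR adjusted p = 0.131). Fxyd6 had -0.49 (SE 0.11, DESeq2 adjusted p = 0.00175, edgeR adjusted p = 0.0778). Atp1b2, another beta subunit, had -0.67 (SE 0.17, DESeq2 adjusted p = 0.00507, edgeR adjusted p = 0.103). In labelled knockout 3 itself Atp1b2 stood at 77.1 CPM, above every other library, and it was named after its values were seen.

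The calcium pump list held Atp2b1 to Atp2b3 and the 2 pump partners Bsg and Nptn, all 5 tested. Bsg (basigin) had the highest level, 507 ± 58.6 CPM in labelled knockouts and 481 ± 38.4 in wild types, and Atp2b2 the smallest p, at 2.58 ± 1.00 against 3.47 ± 0.596 CPM. Atp2b4 exceeded Atp2b1 in 8 of 8 libraries per length, at 11.0 against 2.04 CPM per kb in wild types.

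The genes whose pattern over the 8 libraries was most like that of each gene were sought among 9619 other named genes with at least 10 CPM (9620 for Hvcn1), by the root mean square (RMS) difference of log2(CPM + 0.5) centred on its mean. Nearest to Kcnu1 were Spata7, Hmox2 and Acsl1 (RMS 0.031, 0.037 and 0.038). Nearest to Lrrc52 were Rnf19a, Hspa4l and Mrpl39 (0.026, 0.028 and 0.032), and nearest to Atp1a4 were Actrt2, Ankrd61 and Fndc8 (0.041, 0.042 and 0.051). Slc9c1 had less close matches, Atp6v0c, Zdhhc14 and Carnmt1 (0.067, 0.089 and 0.094). All the genes named for Kcnu1, Lrrc52, Atp1a4 and Slc9c1 were lowest in labelled knockout 3, below every wild type, so that library weighs heavily in these matches. Nearest to Atp2b4 were Dvl2, Setd5 and Tmem131 (0.039, 0.043 and 0.044), all highest in labelled knockout 3. The 3 nearest to Hvcn1, Utp15, Tspyl1 and Mfap1a, lay at 0.11, 0.14 and 0.14, for a gene of at most 31 counts. Within the set, Kcnu1 and Atp1a4 were the closest pair (RMS 0.12), Kcnu1 and Lrrc52 came next (0.14), and Kcnu1 and Atp2b4 were 0.46 apart.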

How the data were processed

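RNA of 8 adult mouse testis libraries was extracted with TRIzol and made into TruSeq libraries, per the labels' protocols. The authors deposited 1 table of raw counts, whole numbers per Ensembl gene and not normalized. Trimmomatic, STAR, featureCounts and DESeq2, with GRCm39 and mm39, are named in the submitters' processing notes. The sources used here give no versions, annotation release or strand setting. No column was without a sample (0).

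Libraries were grouped by title. Genes were filtered with filterByExpr (minimum count 10, minimum total 15), scaled by TMM and compared by quasi-likelihood (edgeR 4.0.16; limma 3.58.1, DESeq2 1.42.0 and R 4.3.3 were also used), with Benjamini-Hochberg adjustment over 21805 genes and a threshold of 0.05. Each SE was recovered from the F statistic of the gene. Count ratios had 0.5 added to each count, and 1 further ratio that was planned and 2 genes of the lists are not reported here. A count of 0 allows up to 0.123 to 0.166 CPM (3 counts, counting error only). Scripts were tested on simulated counts.

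Named genes are the 6 genes, Ak9, ratio partners, the most abundant gene and the one with the smallest p in each list of relatives, and the 3 nearest in pattern. The genes and lists were chosen with earlier results of these data known. No gene had a near copy (0 of 6 with a transcript at 95% identity over 80% of its length, blastn 2.17.0, GENCODE M21 on GRCm38, used for lengths, overlaps and chromosomes). Alternatives were a replicate block, RLE, other filters, DESeq2, limma-voom and leaving out each library. Within each group no library was a copy of another (chi-square per gene at least 4.52). Pairs of a labelled knockout and a wild type were not checked in this way.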

Additional observations from a re-analysis of the deposited data

Results flagged for a closer look

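Kcnu1 had a library far from the others in both groups. Its 51.4 CPM in labelled knockout 3 lay apart from the other labelled knockouts, with a gap to the nearest of them of 0.852 of the group's range, and its 76.4 CPM in wild type 2 lay apart from the other wild types, with a gap of 0.846. Both gaps exceeded Dixon's 95% limit for 4 libraries. Without wild type 2 the log2 fold change of Kcnu1 was 0.059 (SE 0.22), and without labelled knockout 3 it was 0.30. Of 20 groups of values checked 2 stood out, where chance gives about 1 in 20.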

How the results depend on the processing

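None of the 6 genes was called under the other filters, scalings and tools or without any 1 library, where the smallest adjusted p was 0.102 (Kcnu1 in edgeR without labelled knockout 3). In edgeR without a low-count filter 16 genes were called higher and 10 lower over the whole table, and DESeq2 called 23 higher and 23 lower, against 4 and 0 in the edgeR fit of the report (an unadjusted p under 0.05 was reached by 272 in the higher and 390 in the lower direction). Leaving out 1 library gave 3 to 23 higher and 0 to 24 lower, with 23 and 12 without labelled knockout 3, 9 and 24 without labelled knockout 1 and 14 and 19 without labelled knockout 4. The cause was not tested. DESeq2 without labelled knockout 3, added after the data were seen, called 755 higher and 356 lower and gave Kcnu1 0.31 (DESeq2 adjusted p = 0.0134), Lrrc52 0.27 (SE 0.11, DESeq2 adjusted p = 0.0958), Slc9c1 0.067, Hvcn1 -0.092, Atp1a4 0.13 and Atp2b4 -0.11.

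The log2 fold change of Atp2b4 changed sign to -0.0091 with the replicate block, -0.0099 without a filter, -0.0037 with a mean of at least 1 CPM and -0.0087 with limma-voom. Leaving out 1 library at a time moved it between -0.12 and 0.062, Slc9c1 between -0.19 and 0.055, Hvcn1 between -0.11 and 0.37, Atp1a4 between -0.17 and 0.12, Kcnu1 between 0.0074 and 0.30 and Lrrc52 between 0.026 and 0.26. Without labelled knockout 4 the values were 0.0074 for Kcnu1, 0.026 for Lrrc52, -0.19 for Slc9c1, 0.14 for Hvcn1, -0.15 for Atp1a4 and -0.0029 for Atp2b4. The ratio differences moved between -0.12 and 0.043 for Kcnu1 to Lrrc52, -0.13 and 0.14 for Slc9c1 to Adcy10 and -0.041 and 0.24 for Atp2b4 to Atp2b1.

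Deviations of same-numbered libraries had correlations across genes of 0.15, 0.06, -0.06 and 0.04. Libraries with different numbers ranged from -0.24 (labelled knockout 1 with wild type 2) to 0.33 (labelled knockout 3 with wild type 2). Such values cannot decide whether same-numbered libraries were paired, and the labels state no pairing. With the replicate block 4 genes were called higher, as without it. Hvcn1 gave no value under the filter on a mean of 1 CPM, which it did not reach. Depth limits Hvcn1 alone among the 6, at 10 to 31 counts.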
